A study of Mus musculus with 10 samples.

Results

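The integrated stress response (ISR) was followed through 10 genes: Atf4, the transcription factor at its centre, and 9 genes known as ATF4 targets or partners of it, Atf5, Ddit3, Ddit4, Asns, Trib3, Chac1, Sesn2, Nupr1 and Slc7a11. They were found by gene name among the 57825 genes of the expression table, and all 10 passed the filter on low values that left 15710 genes to test. The name Ddit3 is listed for a pair of entries, and the one with the higher mean was used; the other was at 0 in every sample. The RNA came from purified CD8+ T cells that had been co-cultured with 4T1, a murine breast cancer line. The groups were CD8+4T1, without sodium acetate, and CD8+4T1+NaAc, with 5 mM sodium acetate (NaAc), with 5 samples in each. In both groups the T cells were isolated from spleens of female Balb/c mice aged 7 to 8 weeks, activated with anti-CD3, anti-CD28 and IL-2 (12 h on the anti-CD3 plate) and given NaAc or none during 24 h, before 48 h of co-culture (day 3 in the labels). The labels do not say whether the 5 samples of a group came from separate mice, so p-values measure the spread between these samples, which may be technical. The comparison asks which genes acetate changes in CD8+ T cells that face tumor cells.

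In the integrated stress response, kinases that sense amino acid shortage (GCN2), unfolded protein (PERK), double-stranded RNA (PKR) or low heme (HRI) phosphorylate the translation factor eIF2. This lowers general protein synthesis, while upstream open reading frames let the Atf4 mRNA be translated more, so that ATF4 protein can rise with little change of its mRNA. ATF4 pairs with C/EBP proteins on C/EBP-ATF response elements and turns on genes for amino acid uptake and synthesis, tRNA charging and glutathione, and, under lasting stress, genes of cell death. In activated T cells the pathway is known for matching amino acid supply to growth. The present data hold mRNA only, not eIF2 phosphorylation or ATF4 protein.

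Levels are given as FPKM, in which fragments are divided by gene length and by the fragments of the sample, so that levels of different genes can be set side by side. The FPKM referred to between 16306447 and 18853726 fragments per sample. The listed genes held between 95.5% and 97.9% of the fragments in CD8+4T1 samples and between 89.85% and 92.1% in CD8+4T1+NaAc samples. The 10 T cell markers summed to between 832 and 939 FPKM without NaAc and to between 764 and 837 FPKM with it. Cd8a, a chain of the CD8 coreceptor, averaged 78.6 ± 2.34 and 76.5 ± 4.37 FPKM (SD, n = 5 each), with a log2 fold change of -0.04 (SE 0.05, limma adjusted p = 0.559). Cd8a was called higher with samples scaled to the same total (0.14, adjusted p = 0.0475) or to the T cell markers (0.19, adjusted p = 0.0104). Cd8a is itself among the markers that set the latter scale, so its value there is not independent of the scale. Genes listed as markers of other cells were also measured: 20 markers of 4T1 and epithelial cells summed to between 18.3 and 29.5 FPKM in CD8+4T1 and to between 77.7 and 190.9 FPKM in CD8+4T1+NaAc. The markers of myeloid cells summed to between 26.2 and 35.8 FPKM without NaAc and between 27.2 and 31.1 FPKM with it, those of B cells to between 3.92 and 4.91 and between 4.55 and 6.22 FPKM, and those of NK and CD4 cells to between 0.335 and 0.890 and between 1.49 and 1.92 FPKM. Most of the myeloid sum was Cd68 (means of 25.8 and 22.8 FPKM). Lyz2, a myeloid marker, and Cd4 were called higher with NaAc (log2 fold change 0.96 and 1.44, limma adjusted p = 0.0328 and 0.000317). No other tested marker of myeloid, B, NK or CD4 cells was called.

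The sequences that ATF4 is known to bind were looked for in the 300 bases around each gene start, 250 before and 50 after it, in the RefSeq promoter table (GRCm38.p6). All 10 genes had an entry, Atf5 with 2 starts. The letters TGATGNAAN of the C/EBP-ATF response element were read on both strands. They were found at 5 of the 10 genes (50%), against 3.95% of 32851 windows and 4.50% of 27025 genes with a window. The 10 genes were chosen as Atf4 and its known targets or partners. The higher share therefore follows from that choice and is not a result of these data. The match of Asns began 23 bases upstream of the start on the gene's strand. Nupr1 had a match 111 bases and Chac1 a match 194 bases upstream, both on the opposite strand, and Trib3 a match on the opposite strand that began at base 14 after the start. Slc7a11 held a pair of matches facing each other, at 66 bases upstream on the gene's strand and 48 bases upstream on the opposite strand. The windows of Atf4, Atf5, Ddit3, Ddit4 and Sesn2 did not hold these letters, which says nothing of sites elsewhere. The promoters with a match are given since their genes differed in their call with NaAc: Trib3 and Nupr1 lower, Chac1 and Slc7a11 higher, Asns not called. Each is read 5′ to 3′ on the strand of its gene, with the matching letters in capitals. The window of Nupr1 lies inside the GRCm38 span of the gene (126623249-126630861), so its RefSeq start is an internal one. They lie at chr6:7693210-7693459 (Asns, - strand), chr7:126625471-126625720 (Nupr1, - strand), chr2:119350992-119351241 (Chac1, + strand), chr3:50443614-50443863 (Slc7a11, - strand) and chr2:152344030-152344056 (Trib3, - strand, only the bases around the match).
Asns: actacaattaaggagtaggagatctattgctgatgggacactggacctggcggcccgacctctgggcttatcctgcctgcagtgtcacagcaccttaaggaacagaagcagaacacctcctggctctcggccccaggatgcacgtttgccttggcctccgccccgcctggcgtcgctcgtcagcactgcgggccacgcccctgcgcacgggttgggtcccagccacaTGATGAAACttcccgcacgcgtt
Nupr1: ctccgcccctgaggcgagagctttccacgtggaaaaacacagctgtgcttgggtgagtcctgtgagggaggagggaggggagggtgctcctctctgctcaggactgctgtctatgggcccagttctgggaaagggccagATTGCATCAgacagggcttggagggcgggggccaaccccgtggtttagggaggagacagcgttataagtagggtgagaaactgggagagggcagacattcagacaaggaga
Trib3: tagctcaggTTTACATCAgccgggcgg
Chac1: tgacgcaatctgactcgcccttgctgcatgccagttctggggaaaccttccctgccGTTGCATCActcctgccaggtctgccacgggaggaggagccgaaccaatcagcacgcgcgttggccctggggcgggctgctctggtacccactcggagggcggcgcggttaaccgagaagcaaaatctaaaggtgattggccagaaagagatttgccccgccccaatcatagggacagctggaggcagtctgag
Slc7a11: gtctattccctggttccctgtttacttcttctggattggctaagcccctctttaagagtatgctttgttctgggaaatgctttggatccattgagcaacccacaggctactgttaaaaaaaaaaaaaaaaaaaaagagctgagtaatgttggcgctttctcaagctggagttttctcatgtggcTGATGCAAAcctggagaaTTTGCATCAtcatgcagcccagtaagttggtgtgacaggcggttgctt

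**Figure D1:**
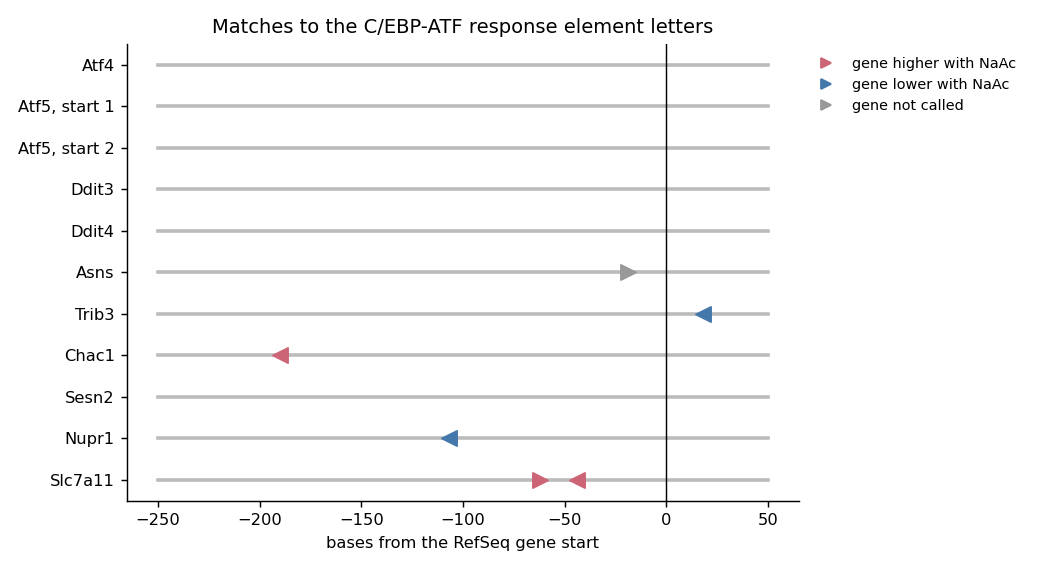
Position of matches to the C/EBP-ATF response element around the RefSeq start of each gene, in bases (x axis), with arrowheads pointing along the strand of the match and coloured by the change of the gene with NaAc. Slc7a11 and Chac1, the genes higher with NaAc, had matches upstream, as did Asns, not called, and Nupr1, lower, while the match of Trib3, lower, lay after the start.

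With NaAc, 6 of the 10 genes were lower, 2 were higher and 2 did not pass the test (limma on log2(FPKM + 0.1), Benjamini-Hochberg adjusted p under 0.05). Atf5, Nupr1, Ddit4, Trib3, Ddit3 and Sesn2 fell, by between 0.42 and 1.04 on the log2 scale. Slc7a11 and Chac1, which serve the import of cystine and the breakdown of glutathione, rose by 1.32 and 0.86. Atf4 itself and Asns did not pass. Of all 15710 genes tested, 36.5% were called in either direction, 19% as lower and 17.6% as higher. The median log2 fold change was -0.45 over the 10 genes and -0.02 over all genes tested, and the median absolute value was 0.66 and 0.26. In 7 of the 10 genes the groups did not overlap, against 26.4% of all genes tested. In bulk RNA, fewer cells of a type and less RNA per cell cannot be told apart.

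**Figure D2:**
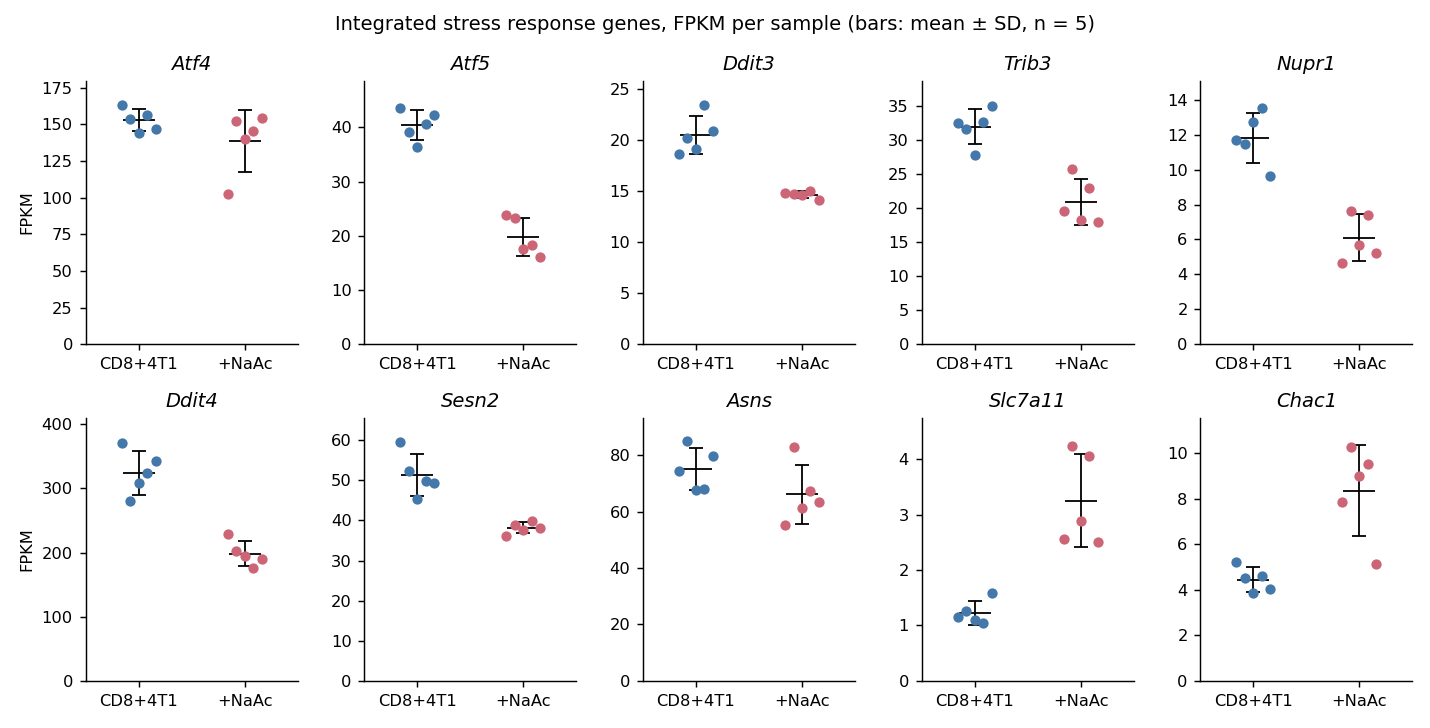
FPKM (y axis, from 0, a scale of its own per gene) of the 10 genes in the 5 CD8+4T1 samples (blue) and the 5 CD8+4T1+NaAc samples (red), with bars for the mean ± SD. The groups overlap for Atf4, Asns and Chac1 and are apart for the other 7 genes, of which Slc7a11 alone is higher with NaAc.

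Atf4 (ENSMUSG00000042406) lay at chr15:80139385-80141742 on the + strand, in the coordinates of the deposited table, which names no build. Its mRNA was measured at 163, 154, 144, 156 and 147 FPKM in CD8+4T1 and at 102, 152, 139.8, 145 and 154 FPKM in CD8+4T1+NaAc replicates 1 to 5. The groups overlapped, and replicate 1 with NaAc stood below the other 9 samples. The means were 153 ± 7.67 and 139 ± 21.3 FPKM (SD, n = 5 each). This was a log2 fold change of -0.15 (95% interval -0.39 to 0.08, limma adjusted p = 0.285). Without replicate 1 of both groups it was -0.02 (adjusted p = 0.726). The sign changed when samples were scaled to the same total (0.02) or to the T cell markers (0.08), where it stayed below the median of all genes.

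Among transcription factors downstream of ATF4, Atf5 (ENSMUSG00000038539, chr7:44461680-44466082, - strand), a bZIP factor linked to the mitochondrial stress response, had 43.6, 39.2, 36.4, 40.6 and 42.3 FPKM without NaAc. With NaAc it had 23.9, 23.3, 17.6, 18.2 and 16.2 FPKM. Every sample with NaAc lay below every sample without it, and the mean with NaAc was 49.0% of that without. The log2 fold change was -1.04 (SE 0.11, limma adjusted p = 6.81e-05). Atf5 shares 571 bases with Nup62, a nuclear pore gene on the other strand, and the strand setting of the counting is not given in the sources used here. Nup62 averaged 59.2 and 56.3 FPKM, with a log2 fold change of -0.07 (adjusted p = 0.377).

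Ddit3 (ENSMUSG00000025408, chr10:127126643-127132157, + strand) encodes CHOP, the bZIP factor tied to cell death under lasting stress. It was at 18.7, 20.2, 19.1, 23.4 and 20.9 FPKM in CD8+4T1. In CD8+4T1+NaAc it was at 14.8, 14.7, 14.6, 15.0 and 14.1 FPKM. The groups did not overlap, and the mean and SD were 14.7 ± 0.352 FPKM with NaAc and 20.5 ± 1.87 FPKM without it (n = 5 each). Ddit3 had a log2 fold change of -0.47 (SE 0.06, limma adjusted p = 0.000207), and it was -0.30 at the same total and -0.25 relative to the T cell markers (adjusted p = 0.00207 and 0.0138). Ddit3 shares 68 bases with Mars1 on the other strand, which averaged 36.1 and 35.6 FPKM. It shares 2925 bases of span with the other entry of its name on the same strand, which was at 0 in every sample.

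The regulators Trib3 and Nupr1 fell as well. Trib3 (ENSMUSG00000032715, chr2:152179342-152185952, - strand), a pseudokinase that binds ATF4 and CHOP and is known to restrain ATF4, had 32.6, 31.6, 27.9, 32.7 and 35.0 FPKM without NaAc. It had 19.7, 25.8, 18.2, 23.0 and 17.9 FPKM with NaAc. The highest sample with NaAc, replicate 2, lay under the lowest without, and the log2 fold change was -0.62 (SE 0.10, limma adjusted p = 0.00101). Relative to the T cell markers it was -0.39 (adjusted p = 0.0256).

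Nupr1 (ENSMUSG00000030717, chr7:126222421-126230033, - strand), a small nuclear stress protein, was measured at 11.7, 11.5, 12.7, 13.5 and 9.67 FPKM in CD8+4T1. In CD8+4T1+NaAc it was measured at 4.63, 7.62, 5.69, 7.38 and 5.25 FPKM. The groups did not overlap, and the mean with NaAc was 51.7% of that without. The log2 fold change was -0.96 (SE 0.14, limma adjusted p = 0.000499), on 199 to 560 fragments per sample. Trib3 and Nupr1 both held the response element on the strand opposite to the gene in the sequences shown above.

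Ddit4 and Sesn2, inhibitors of the growth kinase complex mTORC1, were lower with NaAc. Ddit4 (ENSMUSG00000020108, chr10:59785491-59787656, - strand), also called REDD1, was the most abundant of the 10 genes at 369.9, 279.5, 308, 324 and 342 FPKM without NaAc. With NaAc its level was 229.5, 203, 195, 176 and 189.5 FPKM. The lowest sample without NaAc, replicate 2, stood above the highest with it, replicate 1. Ddit4 thus had a log2 fold change of -0.71 (SE 0.09, limma adjusted p = 0.000176).

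Sesn2 (ENSMUSG00000028893, chr4:132219343-132237812, - strand), a leucine sensor, had 59.6, 52.4, 45.3, 49.9 and 49.3 FPKM in CD8+4T1. It had 36.2, 39.0, 37.6, 39.8 and 38.2 FPKM in CD8+4T1+NaAc. The groups were apart, and the SD was 5.27 FPKM without NaAc and 1.38 with it. For Sesn2 the log2 fold change was -0.42 (SE 0.07, limma adjusted p = 0.000753). Sesn2 was the member whose call depended on the scale: its log2 fold change was -0.24 at the same total (adjusted p = 0.0315) and -0.19 relative to the T cell markers (adjusted p = 0.131). A lncRNA, Gm12981, shares 6089 bases of span with Sesn2 on the same strand and averaged 6.80 and 5.19 FPKM (log2 fold change -0.37, adjusted p = 0.0248).

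The enzyme and transporter genes did not move together. Asns (ENSMUSG00000029752, chr6:7675169-7693254, - strand), the asparagine synthetase, was at 74.4, 84.9, 67.7, 68.1 and 79.8 FPKM without NaAc and at 55.3, 82.9, 61.3, 67.4 and 63.4 FPKM with it. The groups overlapped: replicate 2 with NaAc lay among the highest samples without it. The log2 fold change was -0.19 (95% interval -0.42 to 0.04, limma adjusted p = 0.188). Without that replicate it was -0.27 (adjusted p = 0.0323), and relative to the T cell markers it was 0.04.

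Slc7a11 (ENSMUSG00000027737, chr3:49846975-50398063, - strand) encodes xCT, the transporter that brings in cystine for glutathione in exchange for glutamate. It had 1.14, 1.26, 1.10, 1.04 and 1.58 FPKM in CD8+4T1, the lowest level of the 10 genes. In CD8+4T1+NaAc it had 2.56, 4.23, 2.89, 4.06 and 2.50 FPKM. Every sample with NaAc was above every sample without it, and replicates 2 and 4 stood highest. Slc7a11 had a log2 fold change of 1.32 (SE 0.18, limma adjusted p = 0.000269), on 238 to 1111 fragments per sample. The mean with NaAc was 265% of that without.

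Chac1 (ENSMUSG00000027313, chr2:119181710-119184862, + strand), an enzyme that breaks down glutathione, was at 5.23, 4.52, 3.86, 4.60 and 4.03 FPKM without NaAc. It was at 7.86, 10.3, 8.99, 9.53 and 5.11 FPKM with NaAc. The groups overlapped through replicate 5 with NaAc, which lay under replicate 1 without it. For Chac1 the log2 fold change was 0.86 (SE 0.17, limma adjusted p = 0.00268), and the exact two-sided permutation test of this gene alone gave p = 0.0159. Its counts were the lowest of the 10 genes, 103 to 317 fragments per sample.

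**Figure D3:**
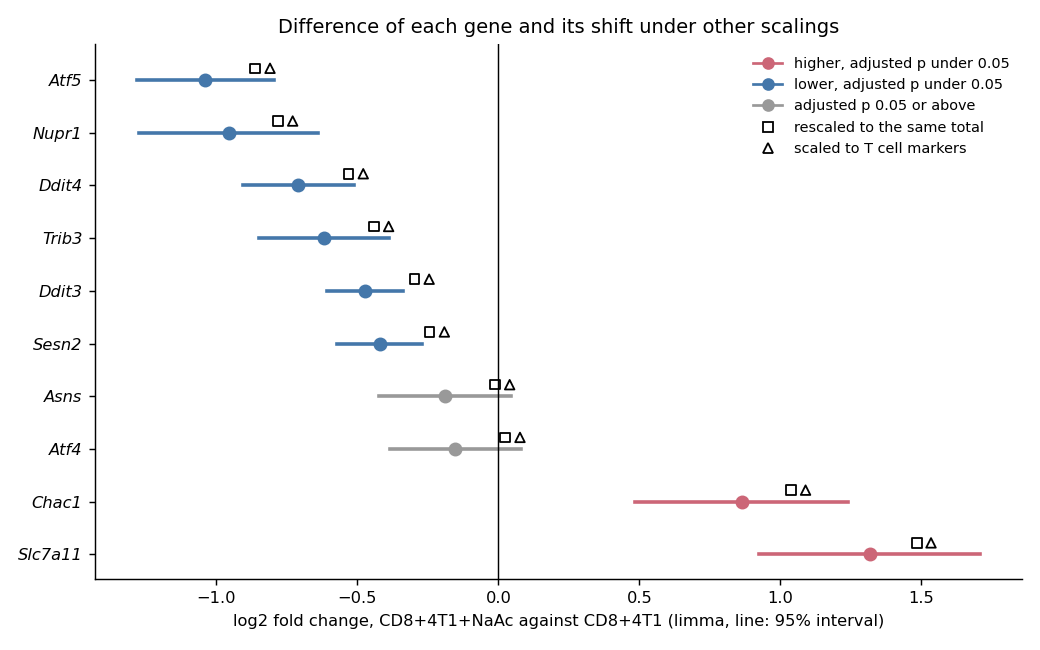
Log2 fold change of the 10 genes (x axis), CD8+4T1+NaAc against CD8+4T1, from limma with 95% intervals (n = 5 per group), and the same value after scaling samples to the same total (squares) or to the T cell markers (triangles). Both scalings move each gene to the right: Atf4 passes 0 under both and Asns under the T cell markers only, while Atf5 stays lowest and Slc7a11 highest under both.

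The genes spanned a wide range of levels. Per length, the order in CD8+4T1 was Ddit4, Atf4, Asns, Sesn2, Atf5, Trib3, Ddit3, Nupr1, Chac1 and Slc7a11, and no neighbours in this order overlapped. In CD8+4T1+NaAc, Trib3 and Atf5 overlapped with means of 20.9 and 19.8 FPKM, and so did Chac1 and Nupr1 with 8.35 and 6.11 FPKM. Chac1 had been below Nupr1 without NaAc, at 4.45 against 11.8 FPKM. The CV with NaAc ran from 2.40% (Ddit3) to 25.7% (Slc7a11), and without NaAc from 5.02% (Atf4) to 17.7% (Slc7a11).

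The other genes of the pathway were taken as 67 genes in 8 lists, of which 65 could be tested. With NaAc 34 of the 65 were lower, 8 were higher and 23 did not pass, and their median log2 fold change was -0.23. Over all genes tested, 19% were lower and 17.6% higher. In 35 of the 65 genes the groups did not overlap, against 26.4% of all genes tested. These counts and their balance depended on the scale. With samples scaled to the same total, 17 pathway genes were lower and 16 higher. Of all 15710 genes tested, 1387 were lower and 4900 higher on that scale. Relative to the T cell markers 12 pathway genes were lower and 17 higher, against 1001 and 5453 of all genes tested. With voom on the recovered fragments 26 pathway genes were lower and 13 higher, against 2134 and 3958 of all genes tested. Genes named from a list outside the rule for named genes were named after their values were seen.

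Upstream, 1 of 6 genes of the eIF2 kinases and GCN2 partners was higher and none was lower. Eif2ak4, the gene of GCN2, rose from 3.10 ± 0.112 to 4.23 ± 0.234 FPKM (SD, n = 5 each), a log2 fold change of 0.44 (SE 0.06, limma adjusted p = 0.000443). Gcn1, which links GCN2 to ribosomes, had a log2 fold change of 0.15 (adjusted p = 0.0700), and Eif2ak2, the gene of PKR, one of 0.18 (adjusted p = 0.0721). Gcn1 was called higher without CD8+4T1 replicate 1 (0.20, adjusted p = 0.0126) or CD8+4T1+NaAc replicate 1 (0.17, adjusted p = 0.0340), and Eif2ak2 without CD8+4T1 replicate 5 (0.24, adjusted p = 0.00387). With samples scaled to the same total, 5 of the 6 genes were called higher, as were 4900 of all 15710 genes tested. Of 10 subunits of eIF2, its exchange factor eIF2B and its phosphatases, 7 were lower and 3 did not pass. Eif2s2 fell by 0.47 on the log2 scale (adjusted p = 0.000205), Ppp1r15b, a subunit that directs phosphatase to eIF2, by 0.38 (adjusted p = 0.000116), and Eif2b2 by 0.33 (adjusted p = 0.000655). Under the same-total scaling 3 of these 10 genes were lower, against 1387 of all genes tested. Relative to the T cell markers 1 was lower, against 1001 of all genes tested. On the latter scale Eif2s2 was at -0.24 (adjusted p = 0.0385), Ppp1r15b at -0.15 (adjusted p = 0.0821) and Eif2b2 at -0.10 (adjusted p = 0.262). Eif2ak4 was at 0.66 on that scale.

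The 4 bZIP partners of ATF4 were called with 2 in each direction, of which Cebpb, Jdp2 and Cebpg were called under every alternative. Cebpb, a C/EBP factor of acute responses, was at 16.6, 11.4, 10.5, 15.5 and 13.1 FPKM in CD8+4T1 and at 43.7, 53.9, 35.7, 43.5 and 26.2 FPKM in CD8+4T1+NaAc. The groups did not overlap, and the log2 fold change was 1.57 (SE 0.19, limma adjusted p = 0.000162). Jdp2 rose by 0.72 (adjusted p = 0.0139). Cebpg, the usual C/EBP partner of ATF4 at amino acid genes, fell by 0.88 (adjusted p = 0.000293), from 14.8 ± 0.905 to 8.10 ± 1.62 FPKM (SD, n = 5 each). Atf3 was the other gene that fell, by 0.27 (adjusted p = 0.0362), and this call was lost under 6 of the 12 alternatives, both scalings included, and in 7 of the 10 fits that left out a sample (each of CD8+4T1 replicates 1 to 4 and CD8+4T1+NaAc replicates 2, 3 and 5).

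In the lists of amino acid synthesis and transport, which leave out Asns and Slc7a11, the genes that passed the test were lower on the scale of the deposited values. Of 10 genes of amino acid and one-carbon synthesis, Psat1, Shmt2, Mthfd2, Cth and Pck2 fell and 5 did not pass. Cth, which makes cysteine, went from 33.8 ± 1.84 to 20.4 ± 3.10 FPKM (SD, n = 5 each), a log2 fold change of -0.74 (SE 0.10, limma adjusted p = 0.000337). Mthfd2 of the mitochondrial folate pathway fell by 0.50 (adjusted p = 0.000473). Of 8 amino acid transporters, 3 fell. Slc7a3, which carries arginine and lysine, had 12.1 ± 1.02 FPKM without and 5.53 ± 0.371 FPKM with NaAc, a log2 fold change of -1.12 (SE 0.07, adjusted p = 9.29e-06). Slc1a5, which carries glutamine, fell by 0.51 (adjusted p = 0.000148), and Slc7a5, the large neutral amino acid carrier, was the third gene. With samples scaled to the same total, 3 synthesis genes and 2 transporters were lower and 1 of each list was higher. Relative to the T cell markers, 2 synthesis genes and 2 transporters were lower and 1 of each list was higher, with Mthfd2 at -0.27 and Slc1a5 at -0.28. Of all 15710 genes tested, 1387 were lower and 4900 higher at the same total. Relative to the T cell markers, 1001 of all genes were lower and 5453 higher. Without CD8+4T1+NaAc replicate 1, 5 synthesis genes were lower and 1 was higher.

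Of 13 genes of aminoacyl-tRNA synthetases and tRNA export, 10 were lower, with a median log2 fold change of -0.27. Nars, the asparaginyl-tRNA synthetase, fell from 76.2 ± 5.85 to 50.7 ± 3.40 FPKM (SD, n = 5 each), by 0.59 on the log2 scale (limma adjusted p = 8.89e-05). These counts depended on the scale as well. With samples scaled to the same total 3 of the 13 genes were lower, against 1387 of all 15710 genes tested. Relative to the T cell markers 1 was lower and 1 higher, against 1001 and 5453 of all genes tested. Nars was called lower under all 12 alternatives, at -0.36 relative to the T cell markers.

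Of 10 further stress targets, Gdf15 and Fgf21 were below the filter, 5 of the other 8 were lower and 1, Herpud1, was higher. Stc2, a secreted glycoprotein, had 9.58, 10.8, 9.31, 10.3 and 10.7 FPKM in CD8+4T1 and 3.11, 3.06, 3.10, 3.11 and 3.43 FPKM in CD8+4T1+NaAc. The groups were far apart, and the log2 fold change was -1.65 (SE 0.06, limma adjusted p = 6.78e-07). Vldlr, a lipoprotein receptor, fell by 1.31 (adjusted p = 0.00017), Eif4ebp1, an inhibitor of cap-dependent translation, by 0.55 (adjusted p = 0.000295), and Tnfrsf10b, a death receptor induced by CHOP, by 0.52 (adjusted p = 1.54e-05). Pmaip1 was the fifth gene. In this list 5 genes were lower also with samples scaled to the same total or to the T cell markers, with Eif4ebp1 at -0.32 and Tnfrsf10b at -0.29 on the latter scale. Of all 15710 genes tested, 1387 and 1001 were lower on these scales.

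Of 6 genes related in sequence to Sesn2, Trib3, Ddit4 and Chac1, 5 went the other way. Trib1, a pseudokinase that steers C/EBP proteins to degradation, rose from 1.16 ± 0.254 to 4.96 ± 1.72 FPKM (SD, n = 5 each), a log2 fold change of 1.96 (SE 0.23, limma adjusted p = 0.000121). Trib2, Sesn1 and Sesn3 were also higher, while Trib3 and Sesn2 were lower. Chac2 was lower (log2 fold change -0.42, adjusted p = 0.00778) where Chac1 was higher, and Ddit4l was lower as Ddit4 was. Chac2 and Ddit4l were not called lower with samples scaled to the same total. Reads that fit a gene and its relative could be divided between them, and how the counting treated such reads is not given in the sources used here.

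**Figure D4:**
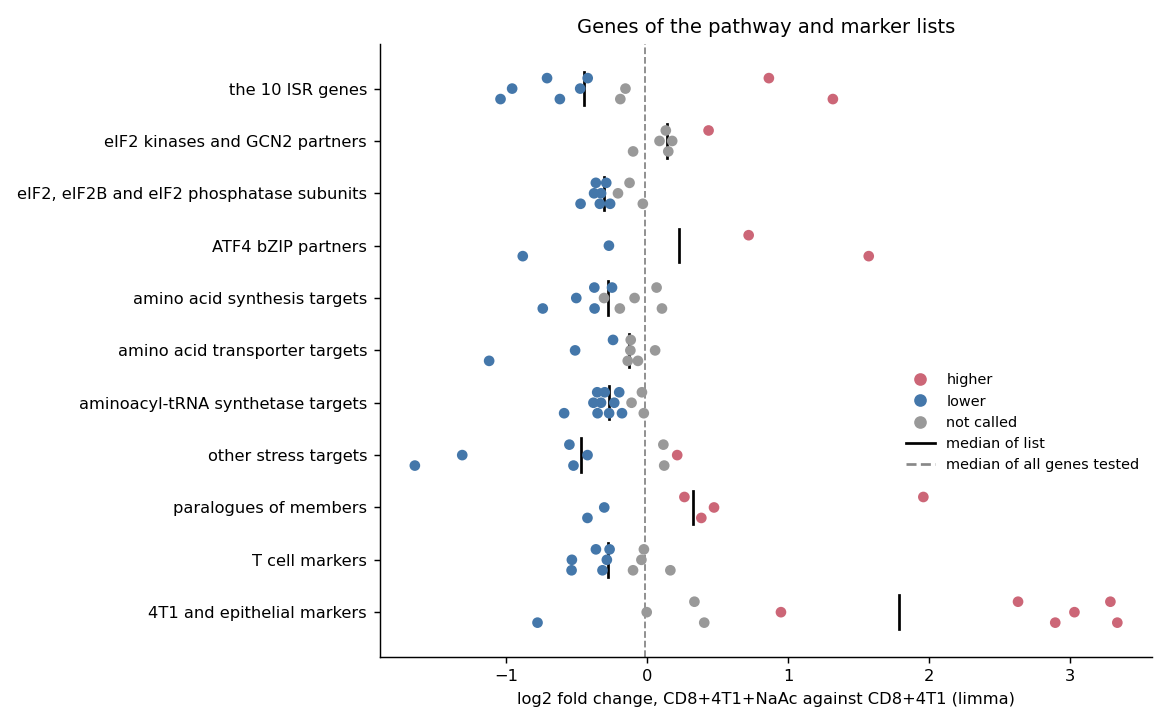
Log2 fold change (x axis, limma, CD8+4T1+NaAc against CD8+4T1) of every tested gene in the 10 ISR genes, the pathway lists and the T cell and 4T1 marker lists, with the median of each list and of all genes tested (-0.02). Most called genes of the amino acid, tRNA synthetase and eIF2 lists lie between -1 and 0, near the range of the T cell markers, while 4T1 markers reach 3.33.

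Markers of T cells and of 4T1 cells differed between the groups in part. Of 10 T cell markers 6 were lower and 4 did not pass, with a median log2 fold change of -0.28. Cd3e fell by 0.36 (limma adjusted p = 0.000608). Its log2 fold change was -0.19 at the same total (adjusted p = 0.040) and -0.13 relative to the T cell markers (adjusted p = 0.163). Cd3e is part of that marker scale, so its value there is not independent of it. Of 20 markers of 4T1 and epithelial cells 10 could be tested, of which 6 were higher, 1 was lower and 3 did not pass. Krt7 (means of 0.143 and 1.79 FPKM) and Cldn3 (0.380 and 2.66 FPKM), called higher, passed the filter only through the NaAc samples, so the count of higher markers supports nothing. Cdh1 (0.032 and 0.606 FPKM) and Elf3 (0.103 and 0.790 FPKM) did not overlap between groups but were below the filter. Krt8, an epithelial keratin, was at 1.77, 2.78, 2.16, 4.74 and 5.66 FPKM in CD8+4T1 and at 26.4, 53.5, 30.7, 40.3 and 19.96 FPKM in CD8+4T1+NaAc. The groups were far apart, with a log2 fold change of 3.33 (SE 0.35, adjusted p = 8.1e-05). Lcn2 rose by 3.28 (adjusted p = 5.33e-05), Epcam, a surface marker of epithelial cells, had 0.519 ± 0.229 and 0.699 ± 0.179 FPKM (SD, n = 5 each, adjusted p = 0.305), and Mal2 was at 0 in all samples.

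Some of the genes shared their order of samples with these markers. Among the NaAc samples Slc7a11, Chac1, Krt8, Lcn2 and Krt18 shared 1 order from high to low, replicates 2, 4, 3, 1 and 5. Cebpb had the order 2, 1, 4, 3 and 5. This was not particular to genes that rose: Trib3 and Nupr1, which fell, and Asns, not called, also had replicates 2 and 4 highest. Other genes that rose had other orders, with Jdp2 highest in replicate 1, Trib1 in replicate 4 and Eif2ak4 and Sesn1 in replicate 5, where the markers were lowest. Over the 10 samples, each relative to its group mean and sharing library and scaling, r with Krt8 was 0.73 for Ddit3, 0.73 for Trib3, 0.70 for Slc7a11, 0.46 for Asns, 0.40 for Chac1, 0.34 for Atf5, 0.33 for Nupr1, 0.09 for Atf4, -0.08 for Ddit4 and -0.16 for Sesn2. With Cd3e it ran from -0.85 (Atf4) and -0.82 (Asns) through -0.58 (Slc7a11) to 0.28 (Ddit4). CD8+4T1+NaAc replicate 1 was highest of its group in Cd3e, at 29.7 FPKM against 26.4 for the next sample. It was lowest of its group in Atf4 (102 FPKM) and Asns (55.3 FPKM), and r without this sample was not computed. In CD8+4T1 the order was not shared: Krt8 was highest in replicates 5 and 4, Slc7a11 in replicates 5 and 2 and Chac1 in replicates 1 and 4. The part of 4T1 RNA in the rise of Slc7a11, Chac1 and Cebpb was not tested, nor was the part of fewer T cell transcripts in the fall of the other genes.

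**Figure D5:**
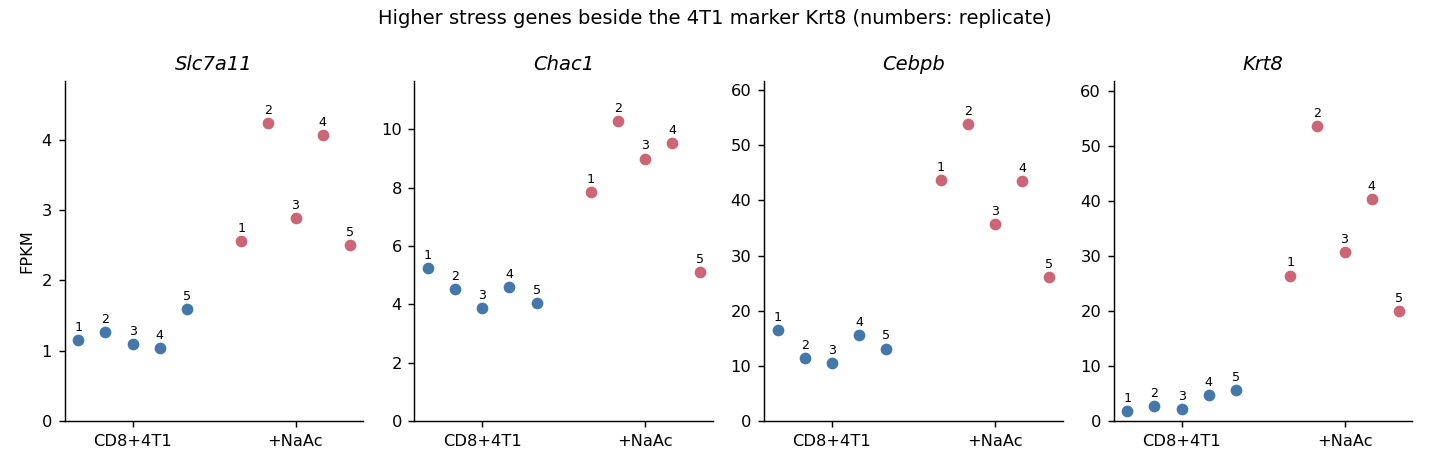
FPKM (y axis, from 0) of Slc7a11, Chac1, Cebpb and the epithelial keratin Krt8 in each sample, with the replicate number above each point, CD8+4T1 in blue and CD8+4T1+NaAc in red. With NaAc, replicate 2 is highest and replicate 5 lowest in all 4 genes, and Chac1 in replicate 5 (5.11) falls into the range of CD8+4T1.

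The pattern of Atf4 was compared with that of 11632 protein-coding genes, with each of the 10 samples taken relative to the mean of its group. Uimc1 (r = 0.989), Wdr5 (r = 0.980), Rbm14 (r = 0.976), Trim28 (r = 0.974) and Eef1akmt1 (r = 0.974) were most like it. The samples of these points share their libraries and scaling, and in all of these genes but Trim28 replicate 1 with NaAc stood apart below the other NaAc samples, as it did in Atf4. None of the 5 passed the test between groups with all samples, and without CD8+4T1+NaAc replicate 1 Wdr5 (log2 fold change 0.16), Rbm14 (0.33) and Trim28 (0.25) were called higher. With all samples, Rbm14 and Trim28 were called higher at the same total (0.41 and 0.35), with voom (0.33 and 0.26) and relative to the T cell markers (0.46 and 0.40), and Rbm14 also among protein-coding genes alone (adjusted p = 0.0484). Without replicate 1 of both groups Eef1akmt1 (0.21, adjusted p = 0.0168), Wdr5 (0.18), Rbm14 (0.35) and Trim28 (0.27) were called higher. The other 9 genes of the stress response were not candidates.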

How the data were processed

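RNA of 10 samples of purified CD8+ T cells was analysed, 5 per group, with groups and replicate numbers from the sample labels. The authors deposited FPKM per gene and sample, with gene length as an other, unnormalized column and with positions. Per the labels and the submitters' processing notes, reads went through fastp, HISAT2 2.0.5, StringTie 1.3.3b and featureCounts 1.5.0-p3; the genome build, annotation and strand setting are not given in the sources used here. Only 1 of the 10 genes has its GRCm38 start and end, so RefSeq promoters were matched by symbol. The authors tested counts with DESeq2. It was not run here, since the deposited FPKM are not counts; voom on the recovered fragments was an alternative. FPKM times gene length are whole multiples (within 0.1) of a step that differs between samples, which gave the fragments behind each value.

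Genes that averaged 0.5 FPKM or more were compared on log2(FPKM + 0.1) with limma 3.58.1 (trend, robust) in R 4.3.3, with Benjamini-Hochberg adjustment over all 15710 genes. This scale understates changes of low genes. The fit was tested on simulated data. It recovered 64.6% of genes changed 1.5-fold, 86.2% of those changed 2-fold and 97.4% of those changed 4-fold. With no gene changed it called 1 of 15969. The simulation used a single dispersion and the same composition in both groups, so it does not bear on the choice of scale. Single genes were also compared by exact two-sided permutation (252 arrangements, smallest p 0.00794). The members and gene lists were chosen with earlier results of these data known, and list counts support nothing beyond the counts. Named genes were all 10 members, every called list gene with an absolute log2 fold change of at least 0.5 or otherwise the 3 of smallest p, 5 marker genes and the 5 genes most like Atf4. In all, 12 alternative settings and 10 fits that each left out a sample were run. Scaling to the T cell markers was added after seeing the data.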

Additional observations from a re-analysis of the deposited data

Results flagged for a closer look

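A sample was set apart where its gap to the nearest of the other 4 samples of its group exceeded a share of 0.71 of the group's range on the log2(FPKM + 0.1) scale (Dixon's limit). This held for 12 of 78 groups checked, where chance gives about 1 in 20, or 3.9. Of the 12, 7 were CD8+4T1+NaAc replicate 1, which was lowest in Atf4 (share 0.761, 102 FPKM against 139.8 for the next sample), Mthfd2 (0.85, 38.4 against 46.9), Cth (0.784, 15.0 against 21.0), Uimc1 (0.832), Wdr5 (0.865), Rbm14 (0.883) and Eef1akmt1 (0.817). The last 4 genes were named for their likeness to Atf4 over these samples, so they are not independent of it. Fewer genes were above 0 FPKM in this library, 20233, than in any other sample. CD8+4T1 replicate 1 was highest in Gcn1 (0.71, 20.7 against 18.2 FPKM) and Mthfd2 (0.72, 73.0 against 64.3 FPKM). Eif2ak2 was highest in CD8+4T1 replicate 5 (0.796, 9.94 against 8.14 FPKM) and lowest in CD8+4T1+NaAc replicate 3 (0.839, 8.96 against 9.41 FPKM). Stc2 was highest among NaAc samples in replicate 5 (0.876, 3.43 against 3.11 FPKM). What set these samples apart was not tested.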

How the results depend on the processing

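Of the 10 genes 8 were called with every alternative except a mean of at least 5 FPKM (7, since Slc7a11 was below the filter), scaling to the T cell markers (7, without Sesn2) and leaving out a sample (8 to 9, the latter without CD8+4T1+NaAc replicate 2). Over all genes 5742 were called, 3733 with a mean of at least 5 FPKM, 3702 at an adjusted p under 0.01 and 4947 to 6965 with a sample left out. Of the pathway genes 42 were called, and 38 to 45 with a sample left out. The scale moved directions: over all genes the log2 fold change had a median of -0.02, 0.15 at the same total and 0.21 relative to the T cell markers, and 2764 genes were higher and 2978 lower as given, 4900 and 1387 at the same total, 5453 and 1001 relative to the T cell markers, 3958 and 2134 with voom on fragments, 1257 and 2476 with a mean of at least 5 FPKM. Some values changed sign. Atf4 was at 0.024 at the same total and 0.077 by T cell markers, and Asns at 0.040 by T cell markers. Cd8a was at 0.14 and 0.19 on these scales, both called higher, and at 0.050 with voom. Uimc1 was at 0.081 and 0.13, at 0.035 without replicate 1 of both groups, and at -0.13 to 0.0063 with a sample left out. Eef1akmt1 was at 0.097, 0.15, 0.017 with voom, 0.21 without replicate 1 of both groups (called higher), and -0.17 to 0.16 with a sample left out. Both highest left-out values came without CD8+4T1+NaAc replicate 1. FPKM summed to at least 310965 per CD8+4T1 sample and at most 295928 per CD8+4T1+NaAc sample. Scaling to the same total therefore raised every gene with NaAc. The T cell marker factor, which includes Cd8a, was also lower in every NaAc sample. The cause of the sign changes under voom was not tested. Under a replicate block 5399 genes, 8 of the 10 and 41 pathway genes were called. Samples of the same number did not deviate together (correlations -0.03 to 0.07), so the numbers were not taken as pairs. Among the 10 genes Chac1 rested on the fewest fragments, 103 to 317.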
